A study of Homo sapiens with 8 samples.

Results

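Nucleoporins are the proteins that build the nuclear pore complex, and karyopherins (importins, exportins and transportins) are the receptors that carry cargo through it. Their mRNAs were followed here through a sort of P-bodies, the cytoplasmic granules that hold translationally repressed mRNA, and through a knockdown of the P-body protein EDC4. Genes were taken by symbol, namely NUP followed by digits (NUP62CL included), KPNA, KPNB, IPO, XPO and TNPO numbers, XPOT, TPR, RANBP2 and CSE1L, which gave 49 of the 59414 genes in the count table. Of these, 47 were also listed in each of the 4 editing tables, and IPO4 and KPNA7 were not.

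All 8 libraries came from HEK293T, a human embryonic kidney cell line, carrying RNA editors directed at P-bodies: a TRIBE editor, which turns adenosine into inosine (A-to-I), and a STAMP editor, which turns cytidine into uridine (C-to-U). The sort compared 2 libraries of sorted P-bodies (total RNA, 50 ng input) with 2 of cytosol (cytoplasmic RNA, 100 ng input), so fraction, RNA type and input cannot be told apart there. The knockdown compared 2 libraries labelled siEDC4 with 2 labelled siNC, all of poly(A) RNA with 500 ng input, and these cells carried the same editors. The labels give no promoter, clone or expression level for the editors. Each label carries a batch number equal to its replicate number, and nothing in the labels says that the samples of a group were separate cultures, so a p-value here speaks only of how far these particular samples spread, and that spread may be technical.

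Scaffold nucleoporins form an outer ring (the Y complex) and an inner ring, FG nucleoporins such as NUP62 and NUP98 fill the channel, and the cytoplasmic face and nuclear basket extend to either side. Importin alpha proteins bind classical nuclear localisation signals and are carried in by importin beta, KPNB1, after which CSE1L returns them to the cytoplasm. Direction is set by the small GTPase RAN, which releases cargo from importins and loads it onto exportins. P-body mRNAs are generally known to be rich in A and U, with A or U favoured at the third codon position.

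The count table held 21186963 to 23716926 counts per sort library, and the editing tables held 5697417 to 15947999 reads per library. All 11 HEK293T markers reached 1 CPM (a gene's share of its library's counts, scaled to a common total) in the sort (summed CPM 452 to 605). So did 3 of 6 fibroblast markers (12.8 to 25.9, THY1 at 0), with most of the sum from COL1A1 (9.3 to 20.7). Epithelial tumour line markers did so for 2 of 5 (15.8 to 21.9), mostly CDX2 (13.4 to 19.5), and blood markers for 1 of 6 (0.908 to 2.0, CD3E and HBB at 0). The HEK293T markers PAX2 (2.59 to 5.32) and LHX1 (5.04 to 7.78) were lower than COL1A1 and CDX2. Of 6 nuclear noncoding RNAs 5 reached 1 CPM (RN7SK was at 0), with summed CPM of 9620 and 9560 in the sorted libraries and 7130 and 7470 in the cytosol. That sum was mostly RMRP, at 7970 and 6890 CPM sorted against 5380 and 5830 cytosolic. Of the others, KCNQ1OT1 was called higher and SNHG1 lower in the sorted libraries, and NEAT1 and MALAT1 were not called, so the list did not move as one. Its part in the results below was not tested. Over all genes, the sorted pair differed 22.5 times and the cytosol pair 3.0 times as much as sampling noise (chi-square divided by its degrees of freedom).

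In the sort, 27 of the 48 transport mRNAs that passed the filter on low counts rose in sorted P-bodies and 4 fell, by edgeR's quasi-likelihood test at an adjusted p under 0.05. Over all 18745 genes tested, 28.8% rose and 29.0% fell. The median log2 fold change, on a scale where 1 is a 2-fold change, was 0.48 for the transport mRNAs and -0.03 for all genes. Rises were spread over both nucleoporins (15 of 24, with 1 fall) and transport receptors (12 of 24, with 3 falls). These are bulk libraries of fractions, and CPM values are shares of a library, so they do not give an amount of RNA per cell. Within the pair of libraries of batch 1 and that of batch 2, the median log2 ratio of CPM was 0.51 in each, and 38 of the 48 genes were above cytosol in both pairs, 8 below in both and 2 of differing sign. Both sorted libraries lay above both cytosol libraries for 37 of the 48 and below for 8, which was so for 38.8% and 41.6% of all genes. KPNA7, an importin alpha with at most 0.318 CPM, did not pass the filter.

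**Figure D1:**
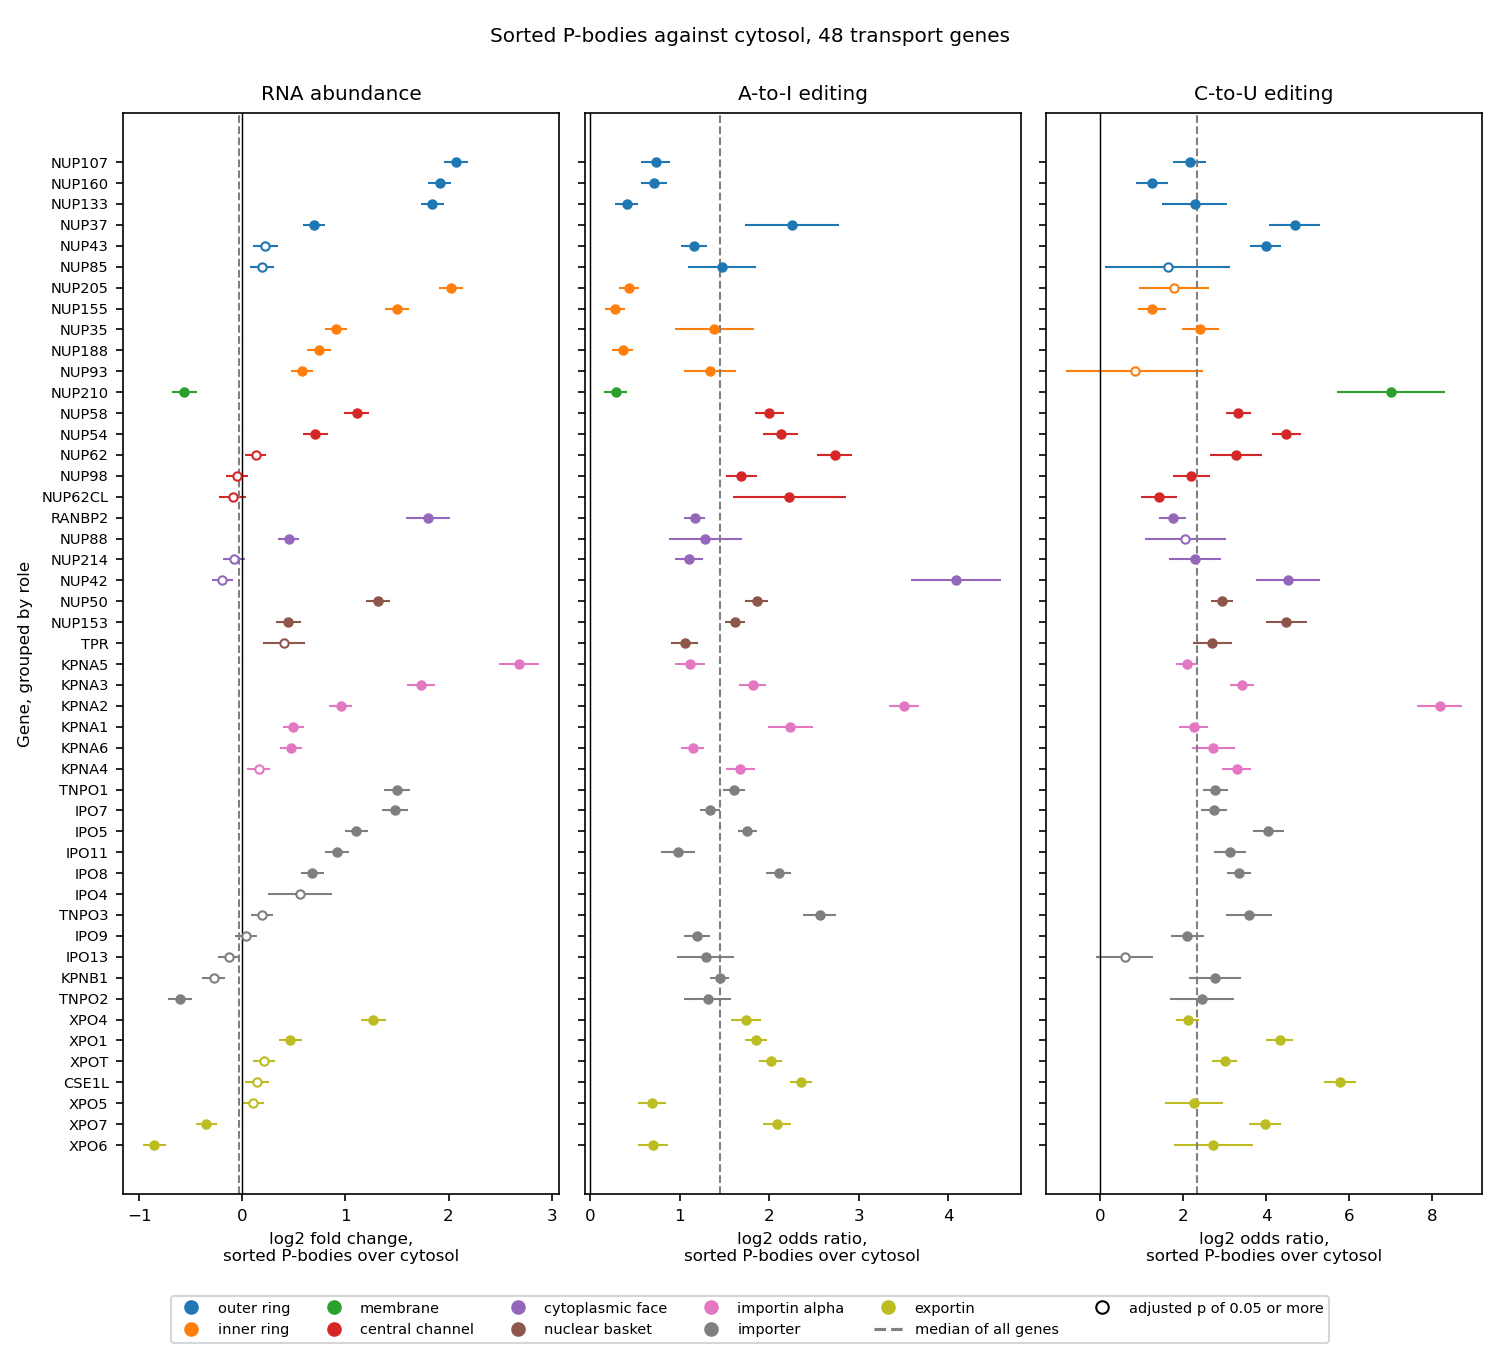
Differences between sorted P-bodies and cytosol for the 48 tested transport genes, ordered by role: log2 fold change of counts (left) and log2 odds ratio of A-to-I (middle) and C-to-U editing (right), with bars of 1 SE, 2 libraries a group, open points at an adjusted p of 0.05 or more, and the median of all genes as a dashed line. NUP107, NUP160, NUP133, NUP205 and NUP155 lie far to the right for abundance and left of the dashed line for A-to-I editing.

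Outer ring mRNAs gave 4 rises among the 6 counted under that role. NUP107, which links the stem of the Y complex (ENSG00000111581.10, hg38 chromosome 12, 68686951 to 68745809), had 445.5 and 459.9 CPM in sorted P-bodies and 100.7 and 114 in the cytosol. Its log2 fold change was 2.08 ± 0.12 (SE, n = 2 per group, edgeR adjusted p = 2.9e-06). NUP160, an arm of the Y, had 755 and 720.1 CPM sorted against 197 and 195 cytosolic (1.92 ± 0.11). NUP133, at the tip of the stem, had 555 and 566 CPM against 151 and 161 (1.84 ± 0.11). In all of these the groups were far apart, and the sorted libraries lay close together. NUP37, a small peripheral subunit, rose by a lesser 0.70 ± 0.11, whereas the β-propeller subunit NUP43 (0.22 ± 0.12) and the short-arm subunit NUP85 (0.19 ± 0.12) did not pass.

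All 5 inner ring mRNAs rose. NUP205, one of the large solenoid adaptors (ENSG00000155561.15, chromosome 7, 135557917 to 135648757), had 1281 and 1320 CPM in sorted P-bodies against 317 and 322 in the cytosol, a log2 fold change of 2.03 ± 0.11 (edgeR adjusted p = 2.8e-06). NUP155, which bridges the ring to the membrane, stood at 1094 and 1031 CPM sorted and 361 and 392 cytosolic (1.497 ± 0.12). NUP188, a large adaptor related to NUP205, changed less (0.74 ± 0.12, adjusted p = 0.00043). NUP35 (0.91 ± 0.11) and the linker NUP93 (0.58 ± 0.11) completed the ring. Against this, the membrane-anchored NUP210 fell by 0.56 on the log2 scale, with 266 and 222 CPM sorted against 354 and 367 cytosolic (SE 0.12, edgeR adjusted p = 0.0031).

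In the central channel, NUP58 (1.11 ± 0.12) and NUP54 (0.71 ± 0.12) rose, while their partner in the same complex, NUP62, had 94.0 and 88.8 CPM sorted against 82.5 and 84.4 cytosolic and did not pass (0.13 ± 0.10, edgeR adjusted p = 0.29). NUP98, a mobile FG nucleoporin, overlapped between the groups, with 263 and 262 CPM sorted against 261 and 283 (-0.05 ± 0.11). Each gene was counted under a single role, so NUP98, with a coding sequence of 5403 bases, was not counted with the outer ring. NUP62CL gave -0.09 ± 0.13. On the cytoplasmic face, RANBP2, the large filament protein and SUMO ligase, had 477 and 808 CPM sorted against 172 and 196 cytosolic (1.80 ± 0.22). Its groups did not overlap, but the sorted libraries differed from each other by more than those of any gene above. NUP88 rose (0.45 ± 0.10), and its partner NUP214 (-0.08 ± 0.11) and the mRNA export cofactor NUP42 (-0.20 ± 0.10) did not pass. RANBP2 has near-identical copies in the RGPD family, so reads could be split between them.

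Among basket mRNAs, NUP50, which helps to release importin alpha from its cargo, rose by 1.31 ± 0.11. NUP153, the anchor of the basket, had 496 and 579.9 CPM sorted against 383 and 406 cytosolic (0.45 ± 0.12, edgeR adjusted p = 0.0099). TPR, the filament of the basket, had 197 and 326 CPM sorted against 182 and 213 cytosolic, so its groups overlapped, and its 0.41 ± 0.21 missed the threshold (adjusted p = 0.12). With the batch number as a block TPR passed in edgeR (0.37, adjusted p = 0.022).

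Importin alpha mRNAs gave 5 rises among 6. KPNA5, a receptor for classical localisation signals (ENSG00000196911.11, chromosome 6, 116681187 to 116741867), had the largest rise of all, from 50.4 and 50.9 CPM in the cytosol to 253 and 399 sorted. That is a log2 fold change of 2.69 ± 0.20 (edgeR adjusted p = 6.2e-06), although the sorted libraries were unequal. KPNA3 had 296 and 372 CPM sorted against 95.5 and 105 cytosolic (1.73 ± 0.14). KPNA2, abundant in dividing cells, had 605 and 633 CPM against 307 and 332 (0.96 ± 0.11). KPNA1 (0.49 ± 0.10) and KPNA6 (0.47 ± 0.11) rose less, and KPNA4, the closest relative of KPNA3, did not pass (0.16 ± 0.11).

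**Figure D2:**
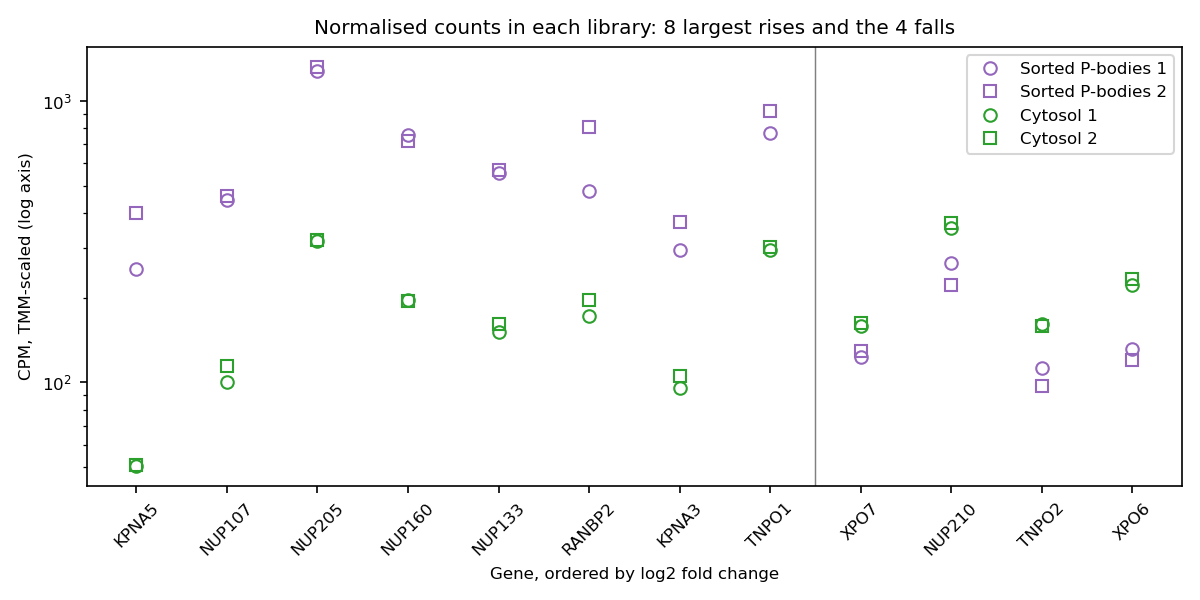
TMM-scaled CPM on a log axis in the 4 sort libraries for the 8 largest rises and the 4 falls among the transport mRNAs, one symbol per library. Both sorted libraries lie above both cytosol libraries for the first 8 genes and below for the last 4, with the widest gap between sorted libraries in RANBP2 (477 and 808) and KPNA5 (253 and 399).

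Of the 11 other importers 5 rose and 1 fell. TNPO1, the receptor for PY-type signals of RNA-binding proteins (chromosome 5, 72816312 to 72916733), had 771 and 921 CPM sorted against 295 and 303 cytosolic (1.5 ± 0.13). Its paralogue TNPO2 (chromosome 19, 12699194 to 12724011) went the other way, with 113 and 97.1 CPM sorted against 161 and 159 cytosolic, and fell by 0.61 (SE 0.11, edgeR adjusted p = 0.0013). IPO7 (1.48 ± 0.13), IPO5 (1.11 ± 0.11) and IPO8 (0.68 ± 0.11), importers of ribosomal proteins and other cargo, rose, as did IPO11 (0.92 ± 0.11). Importin beta itself, KPNB1, had 564 and 541 CPM sorted against 653 and 689 cytosolic, lower in both libraries but just short of the threshold (-0.28 ± 0.11, edgeR adjusted p = 0.052). IPO9 (0.04 ± 0.11), IPO13 (-0.13 ± 0.11), TNPO3, an importer of SR proteins (0.19 ± 0.10), and IPO4 (0.56 ± 0.31) did not pass. IPO4 held at least 24 counts per library, and 70.1% of its exon bases are shared with other genes in GENCODE v29, so its count is uncertain.

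Exportin mRNAs gave 2 rises and 2 falls among 7. XPO4 rose by 1.27 ± 0.12. XPO1, the main exporter of proteins with leucine-rich export signals, had 739.5 and 780.1 CPM sorted against 537 and 563 cytosolic (0.47 ± 0.11, edgeR adjusted p = 0.0051). CSE1L, which recycles importin alpha, had 437.5 and 448.5 CPM sorted against 373 and 431 cytosolic, a difference within the test's error (0.14 ± 0.12). XPO6, the exporter of actin-profilin (chromosome 16, 28097976 to 28211965), fell the most of any transport mRNA, from 222 and 233 CPM in the cytosol to 131 and 120.2 sorted (-0.85 ± 0.11, adjusted p = 0.00012 in edgeR). XPO7 fell from 158 and 163 CPM to 123 and 129 (-0.35 ± 0.11). The tRNA exporter XPOT (0.21 ± 0.11) and the pre-miRNA exporter XPO5 (0.10 ± 0.11) did not pass.

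Per kilobase of the deposited exon length, CSE1L had the highest cytosolic level (106 CPM per kb) and NUP205 the highest sorted level (171 CPM per kb), followed by IPO7 (149.8). This ranking depends on the lengths used. GENCODE v29 gives 3140 exon bases for KPNA2 against 7365 deposited, and 11708 for XPO1 against 23843. Exon overlap in GENCODE v29 also makes IPO11 (22.6% of exon bases), NUP62 (21.1%), NUP88 (18.7%), KPNA1 (16.3%) and NUP42 (13.0%) uncertain. All of the overlap of IPO11 and 11.96% of the exon bases of NUP62 lie on the same strand as the other gene. For NUP88, KPNA1 and NUP42 the overlap is with genes on the opposite strand, and the strand setting of the counting is not given in the sources used here. Calls near the threshold depended on single libraries. Without cytosol 1 the median log2 fold change of the transport mRNAs was 0.442 (-0.019 over all genes), and without cytosol 2 it was 0.5 (-0.023). Leaving out sorted 1 or sorted 2 gave medians of 0.535 or 0.474 (-0.067 or -0.043 over all genes). Scaling by library size alone moved the median of all genes from -0.03 to -0.23 and that of the transport mRNAs from 0.48 to 0.28. It gave 24 rises and 8 falls among them, and the share of all genes called in that fit is not given here.

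A list of 43 further genes of the pore, the RAN cycle and mRNA export gave 9 rises, 21 falls and a median of -0.26 in edgeR's test of the sort counts, where 28.8% of all genes rose and 29.0% fell. The difference between the lists was not tested. Pore components outside the naming rule divided: AHCTF1 (ELYS), which seeds pores on chromatin (1.85 ± 0.17), the Y-complex subunit SEH1L (0.66 ± 0.10) and the membrane nucleoporin NDC1 (0.33 ± 0.11) rose, while the membrane nucleoporins POM121 (-0.93 ± 0.11) and POM121C (-1.02 ± 0.10), which are near-identical copies, SEC13 (-0.70 ± 0.11) and AAAS (-0.49 ± 0.12) fell. In the RAN cycle, RAN itself was level (-0.01 ± 0.12), and its import factor NUTF2 (-1.98 ± 0.13), its exchange factor RCC1 (-0.56 ± 0.11) and RANBP1 (-0.60 ± 0.11) fell. RANBP6, a close relative of IPO5, had the largest rise on the list (2.32 ± 0.12). Among export factors THOC2 rose (1.84 ± 0.23), from unequal sorted libraries (464 and 825 CPM). MCM3AP (0.79 ± 0.11) and THOC1 (0.485 ± 0.104) also rose, and ALYREF (-1.33 ± 0.13), DDX39B (-1.07 ± 0.12) and NXF1 (-0.72 ± 0.10) were among those that fell.

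The transport mRNAs that rose and those that fell differed in base composition, shown here at the third codon position. To show it, the same stretch, coding bases 301 to 420 counted from the start codon, is given from the GENCODE v29 transcript of the 3 largest rises, of TNPO1, and of the 3 largest falls, with G or C at the third codon position in capitals and all other bases in lower case. The stretches run 5′ to 3′ on the mRNA strand and hold 40 codons each.
KPNA5: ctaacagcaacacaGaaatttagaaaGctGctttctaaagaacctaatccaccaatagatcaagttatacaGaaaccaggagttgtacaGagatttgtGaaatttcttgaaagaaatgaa
NUP107: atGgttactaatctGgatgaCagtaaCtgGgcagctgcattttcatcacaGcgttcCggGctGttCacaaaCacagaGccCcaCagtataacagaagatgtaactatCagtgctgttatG
NUP205: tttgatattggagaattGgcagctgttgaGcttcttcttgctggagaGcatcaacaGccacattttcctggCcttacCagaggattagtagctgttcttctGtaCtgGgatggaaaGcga
TNPO1: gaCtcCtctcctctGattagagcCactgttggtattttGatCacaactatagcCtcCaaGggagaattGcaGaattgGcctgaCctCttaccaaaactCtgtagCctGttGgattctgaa
NUP210: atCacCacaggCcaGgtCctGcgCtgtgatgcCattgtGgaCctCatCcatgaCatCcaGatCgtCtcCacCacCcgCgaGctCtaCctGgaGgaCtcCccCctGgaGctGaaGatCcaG
TNPO2: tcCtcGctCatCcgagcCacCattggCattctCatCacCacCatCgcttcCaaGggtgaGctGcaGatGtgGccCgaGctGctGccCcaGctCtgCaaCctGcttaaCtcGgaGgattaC
XPO6: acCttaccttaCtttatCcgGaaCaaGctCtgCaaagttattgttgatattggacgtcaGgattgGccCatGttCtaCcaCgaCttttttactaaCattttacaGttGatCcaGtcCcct
In these stretches G or C ended 6 of 40 codons in KPNA5, 16 in NUP107, 10 in NUP205 and 18 in TNPO1, against 35 in NUP210, 33 in TNPO2 and 22 in XPO6. Over their whole coding sequences the paralogues TNPO1 and TNPO2 end in G or C at 37.8% and 79.0% of codons.

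Over whole coding sequences, the 27 mRNAs that rose had a median of 37.8% of codons ending in G or C (26.3% to 60.6%), and the 4 that fell 70.2% (57.3% to 79.0%). The 17 that did not pass had a median of 44.5%. Across the 48 genes the log2 fold change in the sort and this share gave a Pearson r of -0.54 and a Spearman rho of -0.48, as a description across genes that share the same libraries. The relation was not particular to transport genes, since all 13561 tested genes with a coding sequence gave r = -0.52, but the transport mRNAs sit low on the scale (median 41.4% against 59.4%). Coding length showed no such relation among them (r = 0.06, against 0.38 over all genes). GC of the whole coding sequence gave r = -0.51 among the transport mRNAs and -0.50 over all genes. GC of the 3′ untranslated region gave -0.42 and -0.49, so the relation was not confined to codons. The trend on third-position GC was then removed, an alternative chosen after the data were seen. It was fitted over the tested genes with a coding sequence, and the other genes were left uncorrected. The median of the transport mRNAs went from 0.48 to -0.001. There were 20 rises and 15 falls in edgeR, against 24.2% and 26.3% of all genes, corrected or not. In that fit the outer ring NUP107 (1.17), NUP133 (1.24) and NUP160 (1.42) and the inner ring NUP155 (0.57), NUP188 (0.88), NUP205 (1.44) and NUP93 (0.73) rose, as in the fit without it. NUP85, not called without it, rose (0.40), NUP37 no longer passed (-0.21), and NUP35 (-0.41) and NUP43 (-0.64) fell. Of 7 exportins, 5 fell and XPO4 rose (0.59). Removing a trend on summed exon length instead left 22 rises and 9 falls in edgeR, against 25.7% and 32.2% of all genes, with a median of 0.28.

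**Figure D3:**
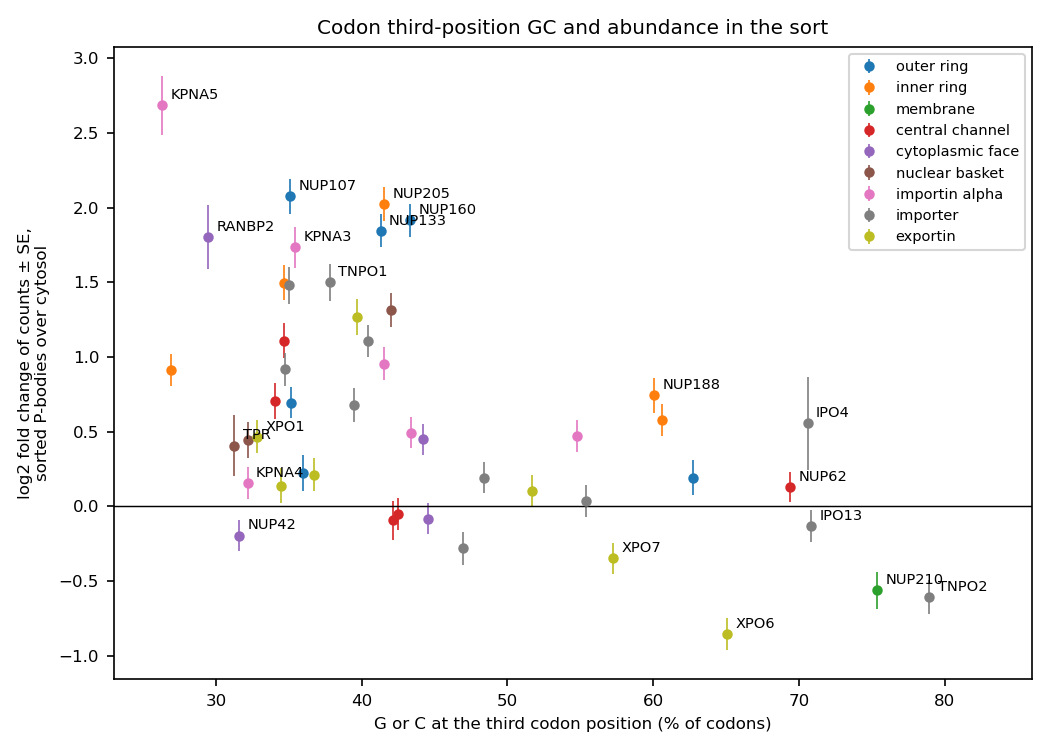
Log2 fold change of counts between sorted P-bodies and cytosol (± SE) against the percent of codons that end in G or C, one point per transport gene (n = 48), coloured by role. The 4 mRNAs that fell all lie at 57.3% or above, and KPNA5, at 26.3%, has the largest rise.

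A-to-I editing was higher in sorted P-bodies for every transport mRNA listed. All 47 passed edgeR's test on edited and unedited reads, where 73.5% of all 11303 genes tested were higher and 1.08% lower, so the shift was shared by most genes. The editing score, the percent of a gene's reads that carry an edit, had a median over transport mRNAs of 8.12% and 8.99% in the sorted libraries and 3.61% and 3.45% in the cytosol, and over all genes of 7.19% and 7.41% against 2.90% and 2.77%. Sorted scores stood above cytosolic ones without overlap in all 47, as they did for 82.3% of genes (4.69% lay below). The median log2 odds ratio was 1.45 for transport mRNAs and 1.46 for all genes. The highest scores belonged to IPO5, at 26.4% and 25.7% sorted against 9.88% and 9.002% cytosolic.

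The largest gains were in NUP42, KPNA2, NUP62 and TNPO3. NUP42 scored 8.40% and 5.08% sorted against 0.107% and 0.716% cytosolic, the latter from 1 and 7 edited reads (log2 odds ratio 4.08 ± 0.50, edgeR adjusted p = 1.8e-06). KPNA2 rested on many more reads, with 10.5% and 10.3% sorted (813 and 668 edited reads) against 1.27% and 0.764% cytosolic (70 and 45), a log2 odds ratio of 3.50 ± 0.17. NUP62 scored 14.0% and 15.8% against 2.38% and 2.72% (2.73 ± 0.20), and TNPO3 8.24% and 8.99% against 1.497% and 1.62% (2.57 ± 0.18). CSE1L followed with 10.3% and 11.0% against 2.14% and 2.38% (2.36 ± 0.13). Of these 5 mRNAs, KPNA2 had passed in sort counts and NUP42, NUP62, TNPO3 and CSE1L had not. In counts, both sorted libraries lay above both cytosol libraries for NUP62, TNPO3 and CSE1L and below for NUP42, which was called lower when scaled by library size alone (-0.40, edgeR adjusted p = 0.0086).

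The smallest gains were those of NUP155 and NUP210. NUP155 scored 6.47% and 6.66% sorted against 5.75% and 5.16% cytosolic (0.29 ± 0.11, edgeR adjusted p = 0.028), and NUP210 scored 6.53% and 6.39% against 5.46% and 5.26% (0.29 ± 0.13, adjusted p = 0.048). Neither passed with the batch number as a block (adjusted p = 0.075 for NUP155 and 0.12 for NUP210 in edgeR), and by limma 7 of the 47 calls were lost, those of NUP155, NUP210, NUP133, NUP188, NUP205, NUP93 and NUP88. NUP205 scored 5.74% and 5.62% against 4.46% and 4.07% (0.44 ± 0.11), and NUP188 (0.37 ± 0.12) and NUP133 (0.41 ± 0.13) were similar. NUP107 scored 6.85% and 8.72% against 5.02% and 4.59% (0.73 ± 0.16). With each library centred on the median of all genes, which moved the median of all genes from 1.46 to 0.06, 15 transport mRNAs were higher and 9 lower, against 16.9% and 12.4% of all genes. The 9 were the outer ring NUP107, NUP133 and NUP160, the inner ring NUP155, NUP188 and NUP205, the membrane protein NUP210, and the exportins XPO5 and XPO6. Of the 15, 10 were receptors. Abundance and editing were read from the same libraries, so the 2 readouts are set side by side here without a test of their relation.

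Levels of the other named mRNAs lay between these. XPO1 scored 8.87% and 9.44% sorted against 2.44% and 2.97% cytosolic (1.86 ± 0.12). NUP153 scored 16.3% and 16.8% against 6.08% and 6.06% (1.62 ± 0.11). KPNB1, whose lower sorted counts were not called, scored 11.0% and 10.9% against 4.43% and 4.203% (1.45 ± 0.11). TNPO1 scored 12.1% and 11.6% against 4.65% and 3.80% (1.61 ± 0.12), and TNPO2 2.54% and 2.61% against 0.853% and 1.25% (1.31 ± 0.27), so the paralogues differed in level of editing, and the difference between their gains was not tested. RANBP2 (1.17 ± 0.12), NUP98 (1.69 ± 0.17) and TPR (1.06 ± 0.15) gained in the same range, with TPR at 9.0% and 7.97% against 4.81% and 3.73%.

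**Figure D4:**
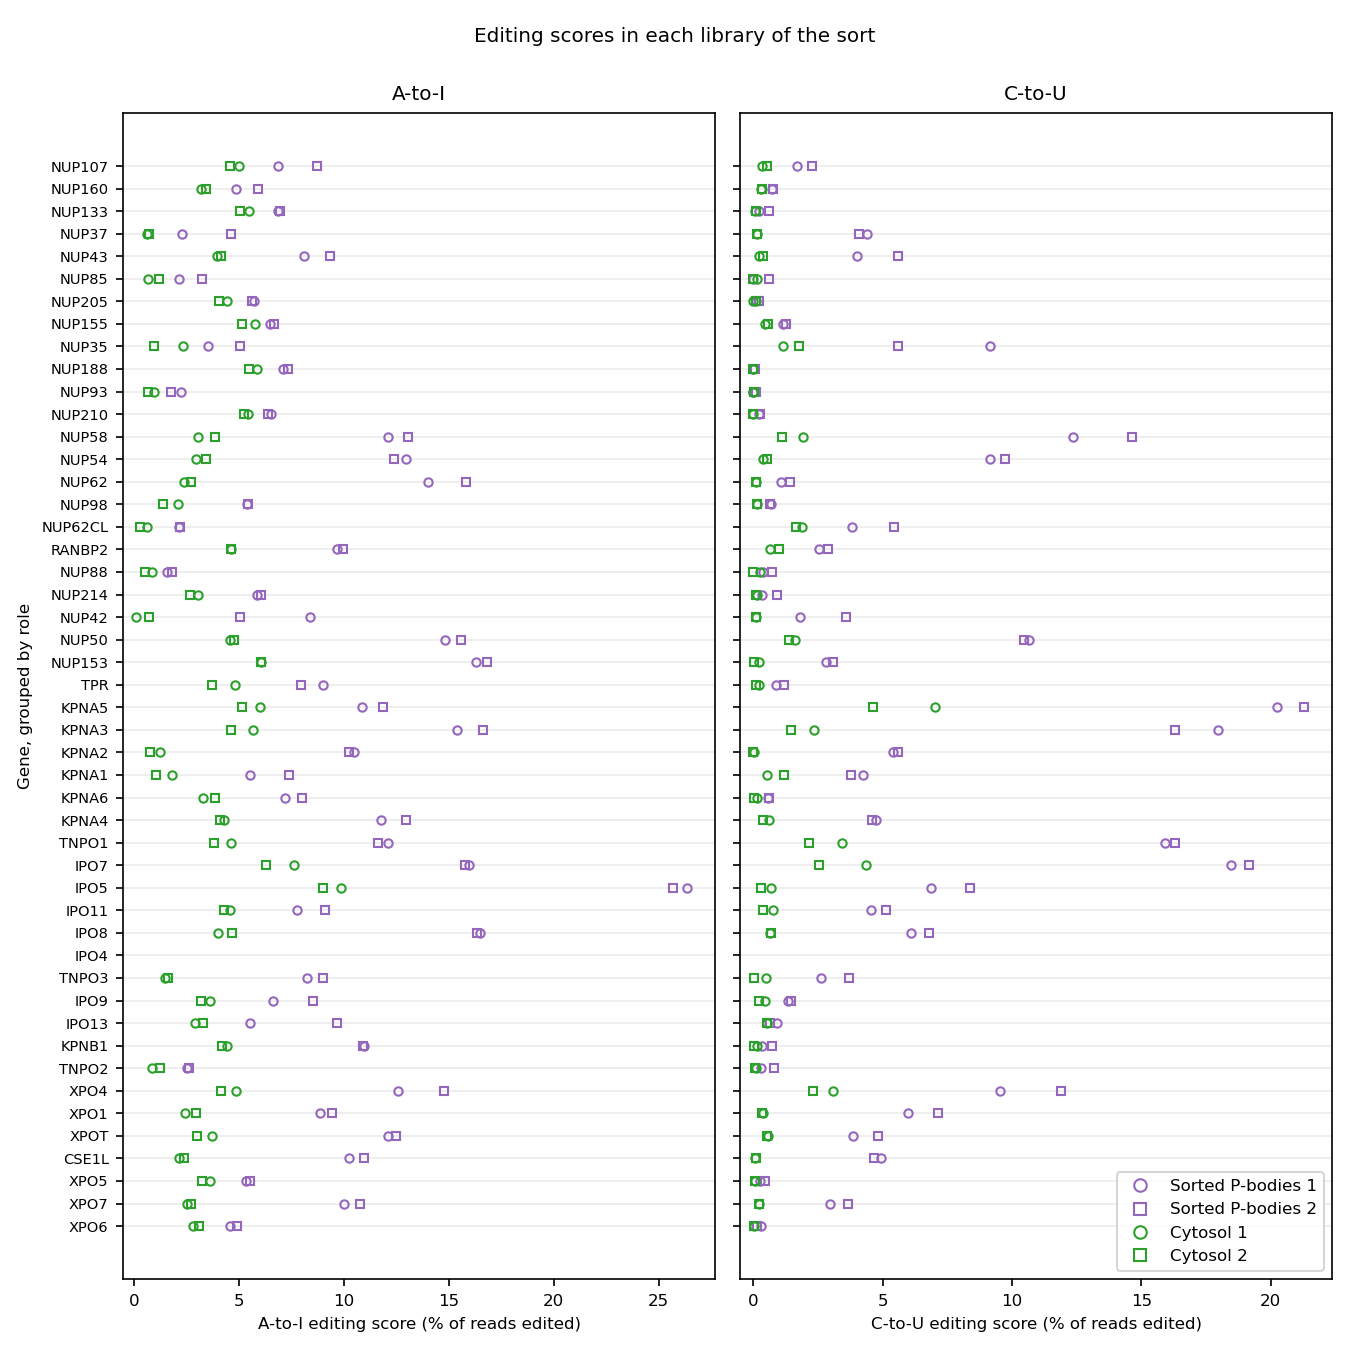
Editing scores (percent of reads edited) of transport mRNAs in each of the 4 sort libraries, A-to-I on the left and C-to-U on the right, ordered by role as in the plot of the sort readouts. Purple symbols (sorted P-bodies) lie right of green ones (cytosol) in every A-to-I row, with IPO5 highest at 26.4% and 25.7%, and KPNA5, IPO7, KPNA3 and TNPO1 highest for C-to-U.

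C-to-U editing was higher in sorted P-bodies for 41 of 46 transport mRNAs tested and lower for none, by the same edgeR test, against 68.0% and 0.292% of all 10613 genes tested. Sorted scores lay above cytosolic ones without overlap in 44 of the 46, compared with 80.0% of genes (4.01% lay below). The median log2 odds ratio was 2.74, and 2.33 over all genes. Median scores of the transport mRNAs were 2.72% and 3.63% sorted against 0.323% and 0.262% cytosolic. Scores are not compared between the editors, which act on different bases.

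KPNA5 was the most edited, with 20.2% and 21.3% sorted against 7.04% and 4.61% cytosolic (log2 odds ratio 2.09 ± 0.27). IPO7 (18.5% and 19.1% against 4.35% and 2.53%), KPNA3 (18.0% and 16.3% against 2.37% and 1.47%) and TNPO1 (15.9% and 16.3% against 3.42% and 2.14%) came next. All of these had also risen in counts. KPNA2 went from 2 edited of 11383 cytosolic reads to 774 of 14077 sorted reads, 313 times the share (95% counting interval 86.3 to 2589). NUP210 had 16 edited of 6823 sorted reads and none of 14531 cytosolic reads. It thus entered the test through the sorted libraries alone and could only have been called higher, and it is among the 41. Its sorted share was 11.4 times a floor of 3 edited reads over the cytosol group, with counting error in the 16 left out. CSE1L scored 4.93% and 4.68% sorted against 0.0737% and 0.104% cytosolic (5.78 ± 0.38, edgeR adjusted p = 1.6e-06). NUP37 had 61 edited of 1427 sorted and 2 of 1310 cytosolic reads, 28.0 times the share (95% counting interval 7.43 to 236). These intervals cover counting error only, and the floor covers that of the cytosolic reads alone.

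XPO1 scored 5.99% and 7.15% sorted against 0.370% and 0.323% cytosolic (4.33 ± 0.32), NUP153 2.83% and 3.10% against 0.238% and 0.0375% (4.49 ± 0.49), and RANBP2 2.55% and 2.89% against 0.636% and 0.993% (1.75 ± 0.33). Lower on the C-to-U scale were KPNB1, at 0.337% and 0.740% sorted against 0.129% and 0.0248% cytosolic, and NUP62, at 1.07% and 1.42% against 0.123% and 0.119%. The mRNAs that did not pass were NUP205 (0.111% and 0.232% sorted against 0% and 0.0918%), NUP88, NUP85, NUP93 and the importer IPO13 (0.916% and 0.661% against 0.544% and 0.531%). With the batch number as a block NUP205 (edgeR adjusted p = 0.033) and NUP88 (adjusted p = 0.042) passed. NUP188 had 4 edited of 15029 sorted reads and none of 13389 cytosolic reads and was not tested. Centred on the median of all genes, 15 transport mRNAs were higher and none lower in edgeR, against 13.7% and 3.62% of all genes. Without sorted 2, 32 of 46 were higher, and the calls of KPNB1, NUP133, NUP155, NUP160, NUP214, NUP62CL, TNPO2, XPO5 and XPO6 were lost.

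Reads per gene in the knockdown were those of the A-to-I editing table, which lists 10643 genes. CPM there is a share of the reads of these genes, unlike the sort counts over 59414 genes. In the knockdown, EDC4 itself, the scaffold of the decapping complex, was checked first. It had 40.3 and 32.7 CPM in the siEDC4 libraries and 110 and 106 in the siNC libraries, a log2 fold change of -1.56 ± 0.14 (edgeR adjusted p = 2.6e-25). Over all genes, reads of the siNC pair differed 1.02 times as much as sampling noise (chi-square divided by its degrees of freedom), against 3.46 for the siEDC4 pair. The siNC libraries thus differed in these reads by less than could be told from sampling noise (chi-square p = 0.062). They were summed and counted as 1 sample. The reads listed for C-to-U gave a chi-square p of 0.047. Edited reads of the siNC pair differed by more than sampling noise (1.3 for A-to-I and 1.31 for C-to-U) and were summed all the same. In the main knockdown tests the spread therefore comes from the siEDC4 pair alone.

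Transport mRNAs did not change detectably in reads. None of the 47 tested passed, and 4 had an unadjusted p under 0.05 in edgeR, as had 786 of all 10642 genes. Of all 10642 genes tested, each of them listed for editing, 0.432% were higher and 0.132% lower. The median log2 fold change was -0.06, and 0.00 over all genes to 2 decimals. Log2 fold changes ran from -0.26 for NUP54 to 0.38 for KPNA5. KPNA5, the largest rise in the sort, had 85.0 and 79.9 CPM with siEDC4 against 62.9 and 64.3 with siNC (0.38 ± 0.14, edgeR adjusted p = 0.29). XPO5 had 167 and 186 CPM against 213 and 202 (-0.24 ± 0.11), NUP107 112.3 and 112.2 against 133 and 134 (-0.25 ± 0.12), and NUP54 66.4 and 76.0 against 86.03 and 84.5 (-0.26 ± 0.13). These 4 had groups that did not overlap, as 10 of 47 transport mRNAs did above siNC and 20 below, compared with 24.5% and 23.9% of all genes. With siNC kept as 2 libraries KPNA5 passed (edgeR adjusted p = 0.047), and with a batch block as well KPNA5 (0.0063), NUP107 (0.048) and XPO5 (0.03) did.

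**Figure D5:**
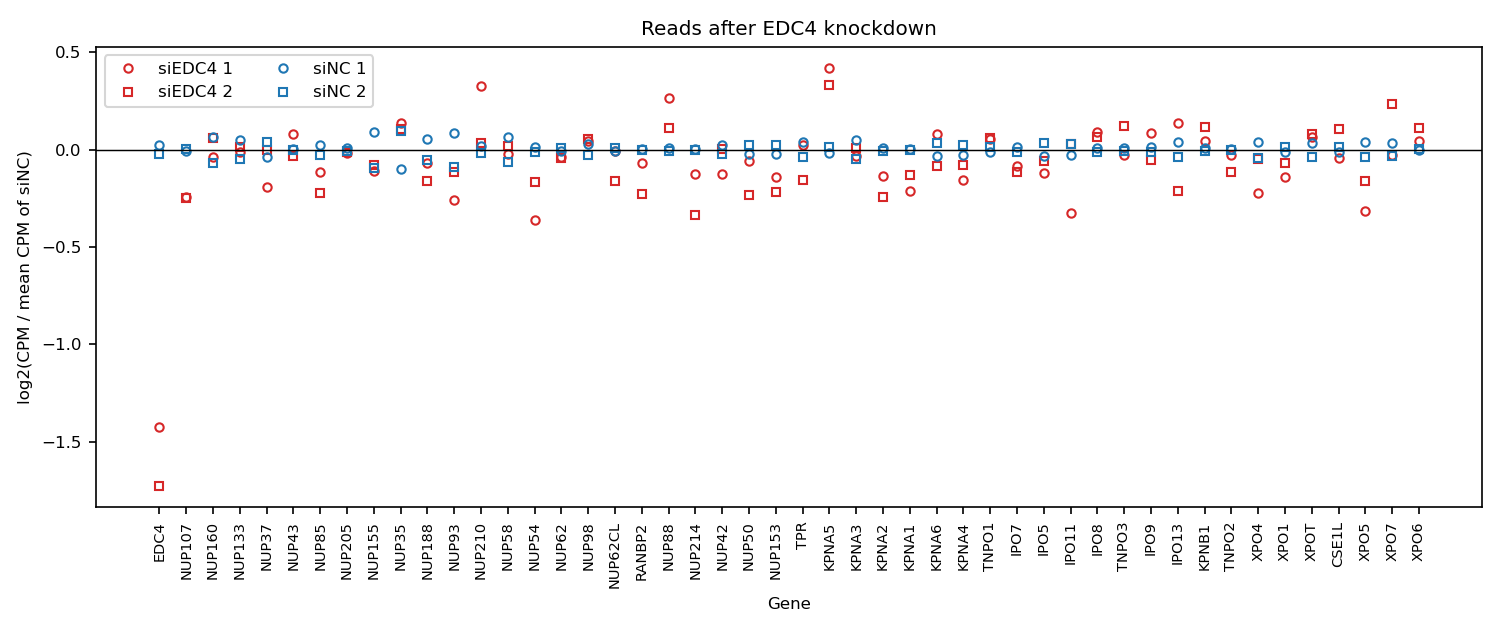
Log2 ratio of CPM to the mean of the siNC libraries for EDC4 and the 47 transport mRNAs, one symbol per library, ordered by role. EDC4 lies far below 0 in both siEDC4 libraries (40.3 and 32.7 CPM against 110 and 106), whereas every transport mRNA stays much nearer to 0 and KPNA5 is highest.

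The remaining named mRNAs were close to level in reads. NUP205 had 483 and 485 CPM with siEDC4 against 492 and 485 with siNC (-0.01 ± 0.11), and TNPO1 369 and 370.2 against 352 and 358 (0.06 ± 0.11). KPNB1 gave 731 and 769 CPM against 712 and 706 (0.08 ± 0.11), XPO1 546 and 576 against 598 and 608 (-0.10 ± 0.11), and KPNA2 325 and 302 against 359.5 and 355 (-0.19 ± 0.11). Of the 43 further transport genes 40 were tested and none passed. An unadjusted p under 0.05 in edgeR was found for 3 of the 40 and for 786 of all 10642 genes.

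Editing after the knockdown also gave no call. For A-to-I none of 46 transport mRNAs passed edgeR's test, and no gene of the whole table passed (0.00% higher and 0.00% lower). An unadjusted p under 0.05 was found for 3 of the transport mRNAs and for 502 of all 9271 genes. The median log2 odds ratio was 0.32, and 0.30 over all genes. For C-to-U none of 47 passed, 0.00% of all genes passed, and the medians were 0.13 and 0.19. Here 2 of the 47 had an unadjusted p under 0.05, as had 407 of all 9745 genes. A p that misses the threshold here does not show that editing was the same. By limma on the 4 libraries no transport mRNA passed either. Both siEDC4 scores lay above both siNC scores in 16 of 46 mRNAs for A-to-I and below in 2, against 30.8% and 8.99% of all genes, and in 12 and 3 of 47 for C-to-U, against 26.2% and 10.9%. With libraries centred on the median of all genes, 0.00% of genes were higher and 0.0103% lower for C-to-U, none of them a transport mRNA.

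The mRNAs with the highest control A-to-I scores were NUP43 (5.73% and 6.72% with siEDC4, 5.004% and 8.10% with siNC), NUP214 (4.41% and 4.01% against 4.17% and 2.91%), KPNA5 (4.45% and 4.84% against 3.06% and 2.71%) and RANBP2 (2.99% and 4.2% against 2.43% and 2.69%). For C-to-U they were NUP62CL (8.57% and 11.3% against 6.11% and 7.78%), TNPO1 (5.73% and 3.82% against 5.52% and 5.14%), KPNA1 (5.42% and 5.16% against 4.41% and 4.13%) and IPO8 (3.47% and 3.64% against 3.77% and 4.41%). KPNA5 was above siNC in both siEDC4 libraries in reads, A-to-I and C-to-U, where it scored 7.46% and 6.64% against 3.33% and 4.11% (0.98 ± 0.39, edgeR adjusted p = 0.99). CSE1L scored 1.08% and 0.934% against 0.394% and 0.572% for C-to-U (1.07 ± 0.46, edgeR adjusted p = 0.99). KPNA2 had no A-to-I edited read in any knockdown library, which for 0 of 4278 siNC reads allows a score of up to 0.0701%, while its C-to-U scores were 1.47% and 1.10% against 1.02% and 0.587%.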

How the data were processed

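The 8 libraries of HEK293T cells fall into 4 groups of 2. Per the submitters' processing notes, tools included FastQC 0.11.9, cutadapt 1.18, STAR 2.7.9a and featureCounts 2.0.1 with build hg38; annotation, strand setting, multi-mapped reads and the calling of edited sites were not given in these sources. The authors deposited raw counts per gene for the sort, with exon lengths. Their editing tables, per the file headers, give reads and edited reads per gene, treated as estimated counts though whole, and the score as a fraction. From each of these tables, 3 broken lines were left out.

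Counts were tested with edgeR 4.0.16 (R 4.3.3, quasi-likelihood, TMM, filterByExpr, Benjamini-Hochberg over all genes). Editing was tested in edgeR on edited against unedited reads with an effect per library, keeping genes edited in 2 or more libraries. SE is the absolute log2 change divided by the square root of F. DESeq2 1.42.0 and limma 3.58.1 served as alternatives, and procedures were tested on simulated data. The batch numbers of the labels pair samples, although deviations of same-numbered samples correlated by only -0.034 to 0.036.

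All transport genes could be named. Values per library were given for the 8 largest rises and falls in sort counts, the 4 largest in each other table (or the highest control scores or smallest p) and 12 fixed genes. Members and lists were chosen with earlier results of these data known. Codon shares came from 1 GENCODE v29 transcript per gene, matched for 49 of 49 genes.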

Additional observations from a re-analysis of the deposited data

How the results depend on the processing

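With 2 libraries a group, leaving out 1 assumes that the lone sample varies like the other group. In sort counts, falls numbered 8 when scaled by library size alone, 9 with the length trend removed and 15 with the third-position GC trend removed, and 2 to 7 (rises 21 to 32) leaving out single libraries; DESeq2 and RLE size factors gave 27 rises and 4 falls. With the length trend removed IPO9 (-0.38), KPNA4 (-0.31) and XPO1 (-0.22) changed sign, as did, with no call in either fit, NUP62, NUP62CL, TPR, XPO5 and XPOT. With the GC trend removed CSE1L (-0.80), IPO11 (-0.009), IPO8 (-0.012), KPNA4 (-0.90), NUP153 (-0.61), NUP35 (-0.41), NUP37 (-0.21), NUP43 (-0.64), NUP54 (-0.25), NUP88 (-0.004), TPR (-0.69), XPO1 (-0.56) and XPOT (-0.61) changed sign, as did, with no call in either fit, IPO13, TNPO3 and XPO5. By library size alone CSE1L, IPO9, KPNA4, NUP62, NUP85, TNPO3 and XPO5 changed sign, with no call in either fit.

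Centring A-to-I editing left 15 transport mRNAs higher and 9 lower (1905 and 1405 of all genes), and changed the sign of IPO11 (-0.43), IPO13 (-0.11), IPO7 (-0.068), IPO9 (-0.21), KPNA5 (-0.29), KPNA6 (-0.27), NUP107 (-0.68), NUP133 (-0.996), NUP155 (-1.12), NUP160 (-0.69), NUP188 (-1.04), NUP205 (-0.97), NUP210 (-1.12), NUP214 (-0.30), NUP35 (-0.004), NUP43 (-0.25), NUP88 (-0.11), NUP93 (-0.059), RANBP2 (-0.24), TNPO2 (-0.088), TPR (-0.35), XPO5 (-0.71), XPO6 (-0.70) and EDC4 (-1.01). Centring C-to-U editing left 15 transport mRNAs higher (1459 of all genes, and 384 lower) and changed the sign of IPO9 (-0.045), KPNA5 (-0.065), NUP155 (-0.91), NUP160 (-0.90), NUP62CL (-0.73), RANBP2 (-0.41) and XPO4 (-0.047), and, with no call in either fit, of IPO13 (-1.494), NUP93 (-1.008), NUP85 (-0.36) and NUP205 (-0.33). These shifts follow from the centring itself. The 122 genes of all with lower A-to-I editing became 319 in limma, 300 in limma with the larger pseudocount, 71 with the replicate block and 47 to 84 leaving out libraries; the 31 with lower C-to-U editing became 271 and 242 in limma and 10 to 30 leaving out libraries. The cause was not tested.

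In knockdown reads, 1 transport mRNA was higher with siNC kept as 2 libraries, and 1 higher and 2 lower with the replicate block. Leaving out libraries gave 0 to 4 higher and 0 to 11 lower, the spread then coming from the siNC pair alone when an siEDC4 library was left out. Over all genes the 46 higher and 14 lower became 111 and 43 with siNC kept as 2 libraries, 303 and 218 with the replicate block, 24 to 1059 and 8 to 1068 leaving out libraries, and 8 lower by library size alone. In knockdown editing, the replicate block gave 25 higher and 1 lower for A-to-I and 3 higher and 1 lower for C-to-U, none a transport mRNA, and centring gave 1 lower for C-to-U. The replicate block changed no other transport call than those given with the results. Low edited counts in the cytosol limit the sort C-to-U contrasts of KPNA2, NUP210, NUP188, NUP42, NUP37, NUP88, NUP85, NUP93 and XPO6. In the sort A-to-I contrast, NUP42 also rests on few cytosolic edited reads. Low siNC edited counts limit the knockdown A-to-I values of KPNA2, NUP35, NUP37, NUP62CL and NUP85.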
